A study of Homo sapiens with 6 samples.

Results

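The integrated stress response was followed here through 10 genes, ATF4, DDIT3, CEBPB, TRIB3, PPP1R15A, ASNS, CHAC1, SESN2, DDIT4 and VLDLR, taken by name as a fixed list of the factor ATF4 and of genes tied to it. All 10 had 1 row each among the 29790 genes of the expression table, and all 10 were expressed highly enough to be tested. RNA had been sequenced from A375, an established human melanoma line. The control group was 3 libraries of untreated cells and the fluvastatin group was 3 libraries of cells given the statin fluvastatin at 3 µM for 24 h, with libraries numbered 0, 1 and 2 in each group. Values of single libraries follow that order throughout. All 6 libraries came from the same line, which carries no engineered change named in the labels, grown in RPMI1640 with serum and glutamine, and the controls are described as untreated, with no vehicle named. Whether each replicate was its own culture is not stated, and p-values here measure only how far these libraries differ, a spread that may be technical.

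In the integrated stress response, kinases that sense amino acid shortage, misfolded protein in the endoplasmic reticulum, viral RNA or haem shortage phosphorylate the translation factor eIF2. General protein synthesis then slows while the ATF4 messenger is translated more, so ATF4 activity is set largely at the level of protein, which RNA sequencing does not measure. ATF4 binds DNA as a dimer with relatives of the C/EBP family and turns on genes for amino acid supply, for feedback on the response and, in prolonged stress, for cell death. Statins block HMG-CoA reductase, the enzyme that commits carbon to cholesterol and to the isoprenoid lipids that anchor small GTPases in membranes.

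ATF4 and C/EBP partners bind a composite element with the core TGATGNAA, and cAMP response elements carry TGACGTCA. Both motifs of 8 letters were searched on both strands in the RefSeq promoter entries (GRCh38.p14), each running from 250 bases before to 50 bases after a gene's start. The composite core stood in 2 of the 10 genes, ASNS and CHAC1, and in 4.46% of 27305 genes with an entry, and the cAMP response element stood in 1 of the 10, PPP1R15A, and in 2.25% of all. The matches lying before the start of these genes are shown as 3 stretches of 30 bases. Whether they bear on the response to the drug was not tested. Capitals mark the motif, which begins 68 bases before the RefSeq start of ASNS, 209 before that of CHAC1 (where the core reads on the opposite strand) and 58 before that of PPP1R15A. The CHAC1 and ASNS stretches lie inside the GENCODE spans of those genes, which begin further upstream than these RefSeq starts. A match describes letters and is not evidence of binding. No match in this window says nothing about elements outside it.
ASNS (chr7:97872458-97872487, minus strand): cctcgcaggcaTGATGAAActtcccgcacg
CHAC1 (chr15:40953251-40953280, plus strand): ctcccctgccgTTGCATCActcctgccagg
PPP1R15A (chr19:48872352-48872381, plus strand): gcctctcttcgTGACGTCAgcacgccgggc

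Expression is given in FPKM, which divides fragments by transcript length and by library size, so that levels can be set side by side per length. Estimated depth, with control replicate 0 set to 1, ran from 0.966 to 1.18 in untreated and from 1.27 to 1.51 in treated cells. All treated libraries were the deeper ones, so that treatment and depth cannot be told apart. Of 8 markers of melanoma lines, 7 had a row, summing to 372 to 402 FPKM in controls and 446 to 468 FPKM in fluvastatin libraries, of which AXL alone gave 305 to 343 FPKM. The pigment gene PMEL stayed below 1 FPKM in every library and MLANA had no row, while SOX10 was at 20.1 to 26.1 FPKM in controls and 67.1 to 75.4 FPKM in fluvastatin libraries. Endothelial markers (4 of 4 with a row, CDH5 at or near 0) summed to 0.345 to 0.382 FPKM in controls and 1.30 to 1.61 FPKM after the drug, and leukocyte markers (2 of 5 with a row) to 0.506 to 1.31 and 2.29 to 2.38 FPKM. Most of the endothelial sum was KDR, at 0.272 to 0.327 FPKM in controls and 1.21 to 1.53 FPKM after the drug. Most of the leukocyte sum was LYZ, at 0.506 to 1.10 and 2.11 to 2.38 FPKM. Fibroblast markers (6 of 6) summed to 18.0 to 21.6 FPKM in controls and 10.3 to 12.3 FPKM after the drug, almost all from COL1A1 and PDGFRB, with COL1A2 and COL3A1 at or near 0. Keratinocyte markers (4 of 5) summed to 38.4 to 63.9 and 70.1 to 71.3 FPKM, most of it KRT10, with TP63 and KRT5 below 1 FPKM and KRT14 at 0.589 to 0.774 FPKM in controls and 4.02 to 5.85 FPKM after the drug. Their part in the results below was not tested, and in bulk RNA fewer cells of a type and less RNA per cell cannot be told apart.

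Cells given fluvastatin held more RNA of 3 of the 10 genes. DDIT3, PPP1R15A and VLDLR rose, none fell, and 7 did not pass the test, which was limma on log2(FPKM + 1) with Benjamini-Hochberg adjustment over all genes tested and a threshold of 0.05. Of all 14344 genes tested, 14.1% rose and 13.6% fell, 27.7% together, so that 3 of 10 called is close to the share among all genes. In 5 of the 10, namely the 3 that rose and also SESN2 and CEBPB, every fluvastatin library lay above every control, against 21.9% of all genes. In 4 others, ASNS, TRIB3, CHAC1 and DDIT4, all 3 fluvastatin libraries lay within the range of the controls, against 12.3% of all genes. The median log2 fold change was 0.30 over the 10 genes and -0.01 over all genes tested. When estimated depth was added as a covariate, 0 of the 10 passed (adjusted p = 0.285 for DDIT3, 0.0973 for PPP1R15A and 0.184 for VLDLR), 61 genes in the whole table did, and no called gene named below was among them.

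**Figure D1:**
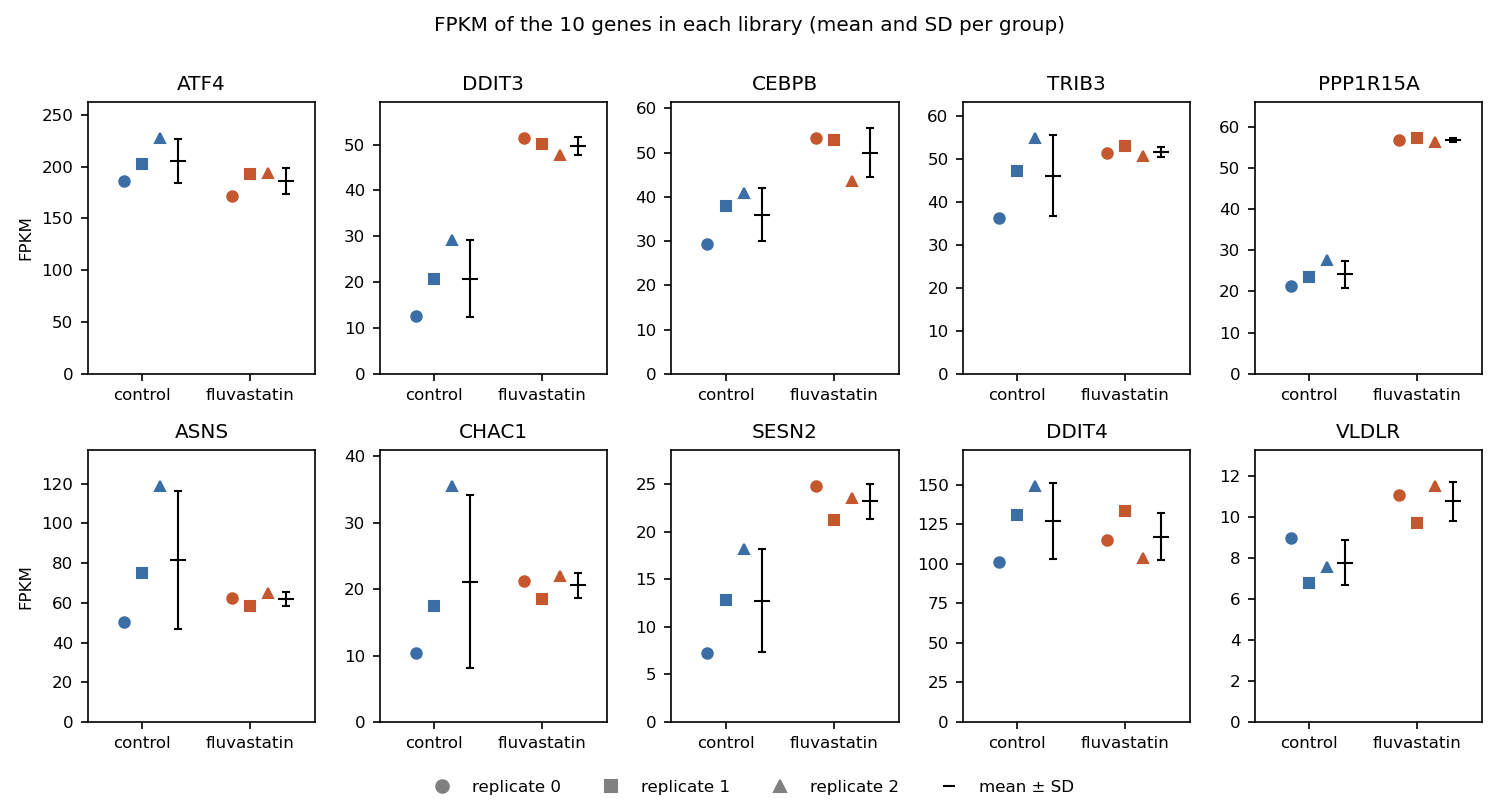
FPKM of each of the 10 genes (vertical axes, linear from 0) in the 3 control and 3 fluvastatin libraries, with the marker shape giving the replicate number and the bar the group mean and SD. PPP1R15A and DDIT3 show fluvastatin libraries well above the controls, while the controls of ASNS and CHAC1 spread from below to above all fluvastatin libraries.

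ATF4, the transcription factor at the centre of the response, was the most abundant of the 10 per length of transcript and did not pass the test. It stood at 186, 203 and 228 FPKM in untreated cells and at 171, 193 and 194 FPKM in treated cells. The groups overlapped, with fluvastatin replicate 0 the lowest library and control replicate 2 the highest. The log2 fold change was -0.14 ± 0.11 (SE), with a 95% confidence interval of -0.40 to 0.12 (adjusted p = 0.385, limma). ATF4 (ENSG00000128272.14) lies on chromosome 22 (GRCh38), plus strand, from 39519695 to 39522685.

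DDIT3, which encodes CHOP, a C/EBP-family factor induced by ATF4 and linked to cell death in prolonged stress, rose after the drug. It was at 12.5, 20.6 and 29.2 FPKM in untreated cells and at 51.5, 50.0 and 47.6 FPKM in treated cells. All fluvastatin libraries were high, and the lowest of them was still 1.63 times the highest control. The group means were 20.8 ± 8.33 and 49.7 ± 1.96 FPKM (SD, n = 3), a 2.39-fold rise with a log2 fold change of 1.30 ± 0.27 (SE; adjusted p = 0.0158, limma), which ranked at position 221 from the top of 14344 genes. The call was lost without fluvastatin replicate 0 (adjusted p = 0.0535), and over the 6 fits without 1 library the log2 fold change ran from 0.99 to 1.57. DDIT3 (ENSG00000175197.11; chromosome 12, 57516588 to 57521737, minus strand) overlaps MARS and MBD6 on the opposite strand and AC022506.1, which had no row, and the microRNA gene MIR616 on its own strand. The strand setting of the counting was not given in the sources used here, so reads in the shared stretches cannot be told apart. MIR616 was listed at 0, 20.8 and 25.5 FPKM in controls and 0, 32.5 and 17.5 FPKM after the drug, with a 0 in each group. MARS, the methionyl-tRNA synthetase, was at 351, 373 and 378 FPKM in controls and 250, 264 and 257 FPKM after the drug, which is the opposite direction to DDIT3.

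CEBPB, a C/EBP factor of inflammation and differentiation that pairs with ATF4, was at 29.2, 37.9 and 40.9 FPKM in untreated cells and at 53.4, 52.9 and 43.6 FPKM in treated cells. The groups did not overlap, but fluvastatin replicate 2 was only 1.07 times control replicate 2. The difference did not pass the test, with a log2 fold change of 0.47 ± 0.15 (SE; 95% confidence interval 0.11 to 0.83; adjusted p = 0.0607, limma), and it passed at a mean of at least 5 FPKM (0.0442) and with limma's trend and robust options on (0.0313). CEBPB (ENSG00000172216.5; chromosome 20, 50190734 to 50192689, plus strand) overlaps the antisense gene CEBPB-AS1, which reached at most 0.655 FPKM.

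Feedback on the response comes from PPP1R15A, which rose, and TRIB3, which was not called. PPP1R15A, also called GADD34, brings a phosphatase to eIF2 and so restores translation. It stood at 21.3, 23.5 and 27.8 FPKM in untreated cells and at 56.7, 57.4 and 56.5 FPKM in treated cells. The fluvastatin libraries differed from each other by no more than 1.02 times, and the lowest was 2.03 times the highest control. PPP1R15A rose 2.35-fold, from 24.2 ± 3.28 to 56.9 ± 0.492 FPKM (SD, n = 3), with a log2 fold change of 1.21 ± 0.11 (SE; adjusted p = 0.00108, limma), and it kept its call without any 1 library. PPP1R15A (ENSG00000087074.7) lies on chromosome 19 at 48872392 to 48876057, plus strand.

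TRIB3, a pseudokinase that binds ATF4 and AKT and is itself induced by ATF4 with CHOP, was at 36.2, 47.1 and 54.9 FPKM in untreated cells and at 51.4, 52.8 and 50.5 FPKM in treated cells. All 3 fluvastatin libraries lay between control replicates 1 and 2. The log2 fold change was 0.18 ± 0.15 (SE; 95% confidence interval -0.19 to 0.55; adjusted p = 0.428, limma). TRIB3 (ENSG00000101255.10) lies on chromosome 20 at 362835 to 397559, plus strand.

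In the metabolic members the groups overlapped. ASNS, which makes asparagine and is a classical target of the amino acid response, was at 50.2, 75.2 and 119 FPKM in untreated cells and at 62.7, 58.3 and 65.2 FPKM in treated cells. CHAC1, an enzyme that degrades glutathione, was at 10.4, 17.4 and 35.6 FPKM in the controls in the same order and at 21.2, 18.5 and 22.05 FPKM after the drug. In both genes the fluvastatin libraries lay between control replicates 0 and 2, with the mean of the drug group at 1.24 and 1.99 times control replicate 0 and at 0.522 and 0.579 times control replicate 2 for ASNS and CHAC1. The log2 fold changes were -0.30 ± 0.29 for ASNS (95% confidence interval -0.99 to 0.38; adjusted p = 0.479) and 0.13 ± 0.39 for CHAC1 (-0.80 to 1.06; adjusted p = 0.837; limma). Both changed sign with the controls used, ASNS to 0.01 without control replicate 2 and CHAC1 to -0.27 without control replicate 0. Both intervals span 0 widely. ASNS (ENSG00000070669.16) spans 97852118 to 97872542 on the minus strand of chromosome 7 and CHAC1 (ENSG00000128965.11) spans 40952962 to 40956519 on the plus strand of chromosome 15.

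SESN2 and DDIT4 both restrain mTORC1, the kinase complex that drives growth, and SESN2 (sestrin 2) also acts as a leucine sensor. SESN2 was at 7.30, 12.8 and 18.1 FPKM in untreated cells and at 24.8, 21.2 and 23.6 FPKM in treated cells. Every fluvastatin library was above every control, by 1.17 times at the closest. The means were 12.7 ± 5.42 and 23.2 ± 1.84 FPKM (SD, n = 3), with a log2 fold change of 0.90 ± 0.29 (SE; 95% confidence interval 0.21 to 1.58), which did not pass the test (adjusted p = 0.0596, limma). It passed without control replicate 2 (0.0197), at a mean of at least 5 FPKM (0.0451) and with trend and robust on (0.0479). In the other 11 alternative fits it did not pass, with adjusted p of 0.151 with no filter and 0.406 with depth as a covariate. SESN2 (ENSG00000130766.4) lies on chromosome 1 at 28259527 to 28282491, plus strand.

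DDIT4 (REDD1), which is also induced by hypoxia and by glucocorticoids, was at 101, 131 and 149 FPKM in untreated cells and at 115, 133 and 104 FPKM in treated cells. The groups overlapped fully. The log2 fold change was -0.11 ± 0.17 (SE; 95% confidence interval -0.51 to 0.29; adjusted p = 0.679, limma), and it was 0.02 without control replicate 2. The overlapping antisense gene DDIT4-AS1 reached at most 0.124 FPKM. DDIT4 (ENSG00000168209.4) lies on chromosome 10 at 72273920 to 72276036, plus strand.

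VLDLR, a lipoprotein and reelin receptor that ATF4 has been reported to induce in stress of the endoplasmic reticulum, was the least abundant of the 10. It was at 8.97, 6.79 and 7.55 FPKM in untreated cells and at 11.1, 9.68 and 11.5 FPKM in treated cells. The groups did not overlap, with fluvastatin replicate 1 at 1.08 times control replicate 0. VLDLR rose 1.38-fold with a log2 fold change of 0.43 ± 0.12 (SE; adjusted p = 0.0427, limma), but the call was close to the threshold. It was lost without control replicate 1 (0.118) or 2 (0.0928) and without fluvastatin replicate 0 (0.120), 1 (0.0568) or 2 (0.122). It was also lost with a pseudocount of 0.1 (0.0511), with no filter (0.0780) and with quantile normalization (0.0564). VLDLR (ENSG00000147852.15) lies on chromosome 9 at 2621834 to 2660053, plus strand, and overlaps VLDLR-AS1, whose values were 0.128 to 1.20 FPKM in controls and 0.890 to 1.23 FPKM after the drug.

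**Figure D2:**
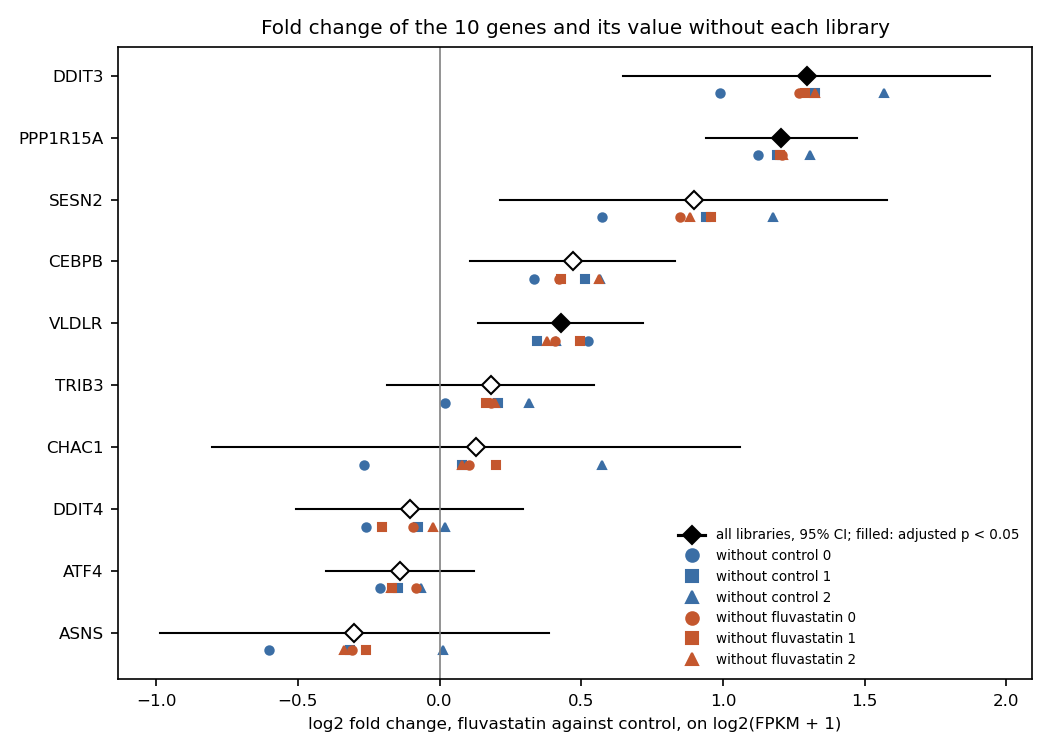
Log2 fold change of each of the 10 genes on log2(FPKM + 1) (horizontal axis), with diamonds and bars for the estimate from all 6 libraries and its 95% confidence interval, and smaller symbols for the estimate without each library. Leaving out control replicate 0 or 2 moved CHAC1 to -0.27 or 0.57 and DDIT3 to 0.99 or 1.57, further than leaving out any fluvastatin library moved either.

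The control libraries differed among themselves in these genes more than in most of the table. In 9 of the 10, all but VLDLR, control replicate 0 was the lowest and control replicate 2 the highest of the 3 controls, an ordering found in 20.3% of all genes tested. This pattern was noticed in the values and is given as a description. The highest control was 3.43 times the lowest for CHAC1, 2.49 times for SESN2, 2.37 times for ASNS and 2.33 times for DDIT3, against 1.19, 1.17, 1.12 and 1.08 times among their fluvastatin libraries. On log2(FPKM + 1), the control SD of these 4 genes exceeded that of 98.3% to 99.0% of the tested genes with a mean of 5 FPKM or more. The control SD was larger than the fluvastatin SD in all 10, and in 55.9% of all genes tested. Relative depth was 1, 1.18 and 0.966 in the controls, and its part in this ordering was not tested.

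Other ATF4 targets showed the same ordering of the controls. It held in 34 of 41 tested (82.9%). By group, the ordering held in 13 of 14 tRNA synthetases and translation genes, 9 of 11 amino acid and one-carbon enzymes and 7 of 8 transporters. The shares were lower in transcription factors, 3 of 5, and in secreted and other targets, 2 of 3. It held in 3 of 22 genes of the ATF6 and IRE1 arms of the unfolded protein response and in 6 of 23 genes of eIF2 and its control, which is near the share in all genes. Among the listed relatives of the members it held in 7 of 14 (50%). Chosen after the values were seen, CTH, which makes cysteine, was at 5.23, 10.5 and 18.1 FPKM in untreated cells, and the glycine transporter SLC6A9 was at 3.14, 7.19 and 10.7 FPKM. In fluvastatin libraries CTH was at 11.97 to 15.5 FPKM and SLC6A9 at 8.41 to 9.50 FPKM, within the range of their controls.

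**Figure D3:**
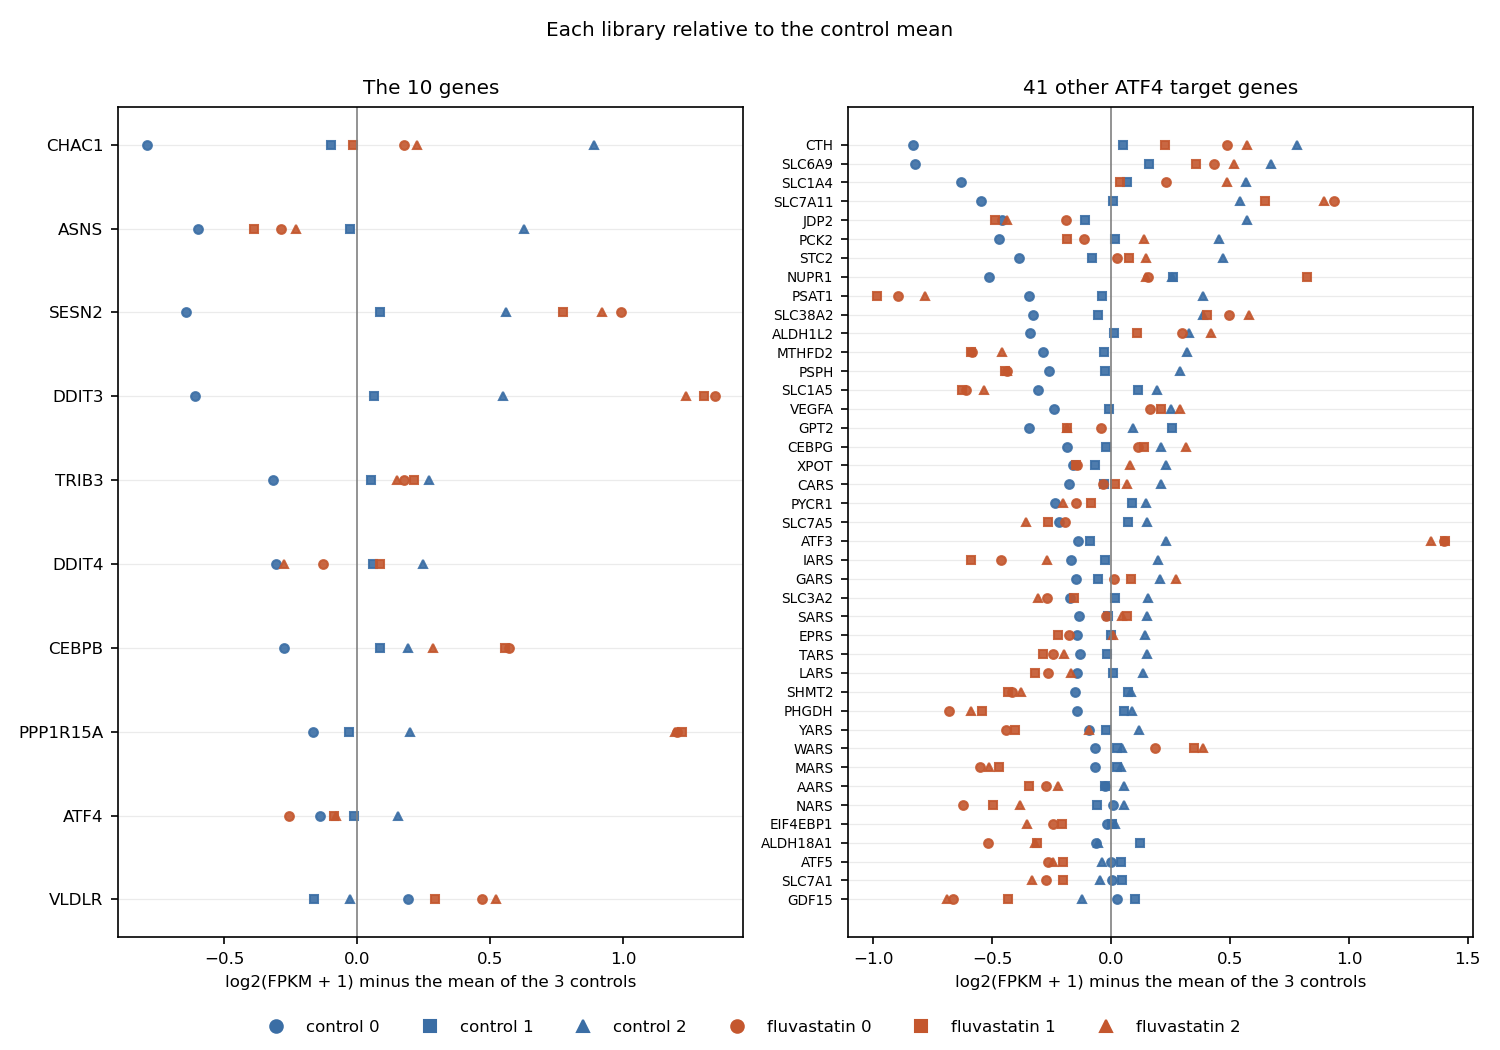
Each library's log2(FPKM + 1) minus the mean of the 3 controls, for the 10 genes (left) and 41 other ATF4 targets (right), sorted by the distance of control replicate 2 from control replicate 0. Blue triangles (control replicate 2) lie to the right of blue circles (control replicate 0) in most rows, and orange points of DDIT3, PPP1R15A and ATF3 lie to the right of all blue ones.

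Ratios between genes within a library set the members side by side. Over 16 ratios the smallest p that an exact permutation test of 3 against 3 libraries can give is 0.10, so none can pass, and the adjusted p of every ratio at that limit was 0.145. PPP1R15A stood at 0.115, 0.116 and 0.122 times ATF4 in untreated cells, nearly constant, and at 0.331, 0.298 and 0.291 times in treated cells. The DDIT3 to ATF4 ratio was 0.0675, 0.101 and 0.128 in the controls and 0.301, 0.259 and 0.246 after the drug, so DDIT3 differed among controls even relative to ATF4. Ratios to ATF4 did not overlap between groups for DDIT3, PPP1R15A, SESN2, CEBPB, VLDLR and TRIB3, each higher after the drug (exact permutation p = 0.10, two-sided). For TRIB3 the ratio was 0.195 to 0.241 in controls and 0.261 to 0.300 after the drug, though its own FPKM lay within the range of the controls. All ratios to ATF4 share that gene as denominator, so they do not vary independently. Its mean was 206 FPKM in controls and 186 FPKM after the drug, a difference that was not called. How many of all genes have a ratio to ATF4 without overlap was not computed. Ratios of ASNS, CHAC1 and DDIT4 to ATF4 overlapped between groups (exact permutation p = 0.70, 0.60 and 0.60). Among the other ratios, DDIT3 to CEBPB was 1.82 times and CHAC1 to its relative CHAC2 2.45 times as high after the drug, and TRIB3 to TRIB1 was 1.74 times lower, each without overlap (exact permutation p = 0.10). The ratio of CEBPB to CEBPD overlapped between groups (exact permutation p = 0.50).

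Among the close relatives of the members, TRIB1 and CREB3 rose and CHAC2 fell. CEBPZ, grouped with them here by its C/EBP name alone, also fell. The median log2 fold change over the 14 listed genes tested was 0.01, and of all genes tested 14.1% rose and 13.6% fell. PPP1R15B, the constitutive counterpart of PPP1R15A in dephosphorylating eIF2, was at 33.9 ± 2.46 and 29.99 ± 1.02 FPKM (SD, n = 3; adjusted p = 0.205, limma). The PPP1R15A to PPP1R15B ratio was 0.658 to 0.755 in controls and 1.82 to 1.95 after the drug. CHAC2, the slower and steadier glutathione-degrading relative of CHAC1, fell 2.22-fold, from 17.4 ± 3.41 to 7.84 ± 1.39 FPKM (SD, n = 3; adjusted p = 0.00695, limma). CHAC2 shared the control ordering with CHAC1, at 14.6, 16.4 and 21.2 FPKM in untreated cells. TRIB1 rose 1.97-fold, from 9.82 ± 0.961 to 19.4 ± 1.63 FPKM (SD, n = 3; adjusted p = 0.00225, limma), and TRIB2 was at 7.55 ± 1.59 and 7.41 ± 2.01 FPKM.

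The reelin receptor LRP8, a relative of VLDLR, was at 53.3 ± 4.64 and 55.2 ± 2.93 FPKM. SESN1 was at 5.35 ± 1.52 and 4.60 ± 0.289 FPKM, and the SESN2 to SESN1 ratio was 1.61 to 2.90 in controls and 4.31 to 5.71 after the drug. SESN3 and CEBPA stayed below 1 FPKM in every library and were not tested, and DDIT4L and CEBPE had no row. Of the C/EBP relatives, CEBPD was at 2.92 ± 0.320 and 3.89 ± 0.709 FPKM (adjusted p = 0.134) and CEBPG, a partner of ATF4, at 20.8 ± 3.01 and 23.7 ± 1.94 FPKM (adjusted p = 0.317). CREB3, a membrane-bound factor, rose 1.43-fold (adjusted p = 0.0160), a call lost without fluvastatin replicate 1 (0.0518), and CEBPZ fell 1.41-fold (adjusted p = 0.0347), a call lost without 5 of the 6 libraries in turn, with adjusted p from 0.0374 to 0.0999. CREB1 was at 28.3 ± 2.77 and 31.9 ± 3.11 FPKM and ASNSD1 at 21.6 ± 3.37 and 18.7 ± 1.97 FPKM, with adjusted p = 0.320 and 0.366.

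Of 46 other ATF4 targets, 45 had a row and 41 were tested. Among these ATF3 rose, 11 fell and 29 were not called, with a median log2 fold change of -0.24 against -0.01 over all genes. The shares over all genes tested were 14.1% that rose and 13.6% that fell. ATF3, a stress-induced repressor and activator that DDIT3 can pair with, was at 7.92, 8.22 and 10.5 FPKM in untreated cells and at 24.9, 25.0 and 23.9 FPKM in treated cells. This 2.77-fold rise (log2 fold change 1.38 ± 0.12 SE; adjusted p = 8.02e-04, limma) was of the size seen in DDIT3 and PPP1R15A. ATF5, a relative of ATF4 that is also controlled at translation, was at 14.0 ± 0.414 and 11.7 ± 0.276 FPKM with all fluvastatin libraries below all controls (adjusted p = 0.0647, limma). The hormone gene GDF15 fell 1.72-fold, from 4.13 ± 0.402 to 2.40 ± 0.342 FPKM (SD, n = 3; adjusted p = 0.0104, limma).

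Of 11 amino acid and one-carbon enzymes tested, 5 fell and 0 rose, against 13.6% and 14.1% of all genes tested. PHGDH, the entry enzyme of serine synthesis, fell 1.53-fold (adjusted p = 0.00684, limma), and PSAT1, the next step, fell 1.90-fold from 162 ± 42.2 to 85.5 ± 6.08 FPKM (SD, n = 3; adjusted p = 0.0158, limma), a call lost without fluvastatin replicate 0 (0.0523) or 1 (0.0531). SHMT2 and ALDH18A1 fell 1.34-fold and 1.31-fold (adjusted p = 0.0228 and 0.0344), calls lost without 5 and 6 of the 6 libraries in turn (adjusted p 0.0216 to 0.0754 and 0.0562 to 0.107). PYCR1 and PCK2 were not called (adjusted p = 0.417 and 0.886). Of 8 transporters 1 fell, the glutamine carrier SLC1A5, 1.52-fold (adjusted p = 0.0254), with adjusted p from 0.00818 to 0.0785 without 1 library. SLC38A2, another glutamine carrier, was at 235, 285 and 388 FPKM in untreated cells and at 418, 392 and 444 FPKM after the drug (adjusted p = 0.0914), and SLC3A2, the heavy chain of several carriers, was at 382 ± 43.2 and 321 ± 18.0 FPKM (adjusted p = 0.150).

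Of 14 tRNA synthetase and translation genes 4 fell and 0 rose, against 13.6% and 14.1% of all genes tested. MARS fell 1.43-fold (adjusted p = 0.00622) and NARS, for asparagine, fell 1.42-fold (adjusted p = 0.0113), and both kept the call without any 1 library (limma). AARS and IARS fell 1.22-fold and 1.36-fold near the threshold (adjusted p = 0.0455 and 0.0494), with adjusted p up to 0.125 and 0.134 without 1 library. TARS and GARS were not called (adjusted p = 0.117 and 0.512). The secreted factors VEGFA and STC2 were not called either (adjusted p = 0.275 and 0.806). The count of 11 that fell was 4 without fluvastatin replicate 0 or 1, 5 without control replicate 1 or 2, 6 without fluvastatin replicate 2 and 10 without control replicate 0. The count of 1 that rose was 3 without control replicate 2.

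Upstream of ATF4, 1 of the 4 eIF2 kinases rose. EIF2AK3, which encodes PERK, the kinase of the endoplasmic reticulum, was at 7.52, 6.67 and 6.001 FPKM in untreated cells and at 13.9, 13.2 and 13.7 FPKM in treated cells. That is a 2.02-fold rise with a log2 fold change of 0.92 ± 0.10 (SE; adjusted p = 0.00166, limma), and its controls were in the opposite order to those of ATF4. The amino acid sensor EIF2AK4 (GCN2) was at 39.2 ± 1.45 and 39.2 ± 2.26 FPKM, the haem sensor EIF2AK1 (HRI) at 54.8 ± 4.72 and 53.4 ± 4.16 FPKM and the RNA sensor EIF2AK2 (PKR) at 49.3 ± 3.31 and 41.3 ± 5.28 FPKM (SD, n = 3; adjusted p = 0.989, 0.833 and 0.160, limma). Of 23 genes of eIF2, its kinases, its exchange factor eIF2B and their regulators, 2 rose, 4 fell and 17 were not called, with a median of -0.17. Over all genes tested, 14.1% rose, 13.6% fell and 27.7% were called in either direction. DNAJC3, an inhibitor of PERK and a chaperone of the endoplasmic reticulum, rose 1.49-fold (adjusted p = 0.00952). It is also in the list of the ATF6 and IRE1 arms below, so it counts among the genes that rose in both lists. The eIF2B subunits EIF2B1 and EIF2B3 fell 1.35-fold and 1.30-fold (adjusted p = 0.0225 and 0.0251), with adjusted p of 0.0334 to 0.0697 and 0.0444 to 0.0836 without 1 library. The count of 4 that fell was 0 without control replicate 0 or 1 and without fluvastatin replicate 0 or 2, 2 without fluvastatin replicate 1 and 5 without control replicate 2. The abundant genes EIF2S3 and EIF2A were at 184 ± 15.3 and 154 ± 10.1 FPKM and at 147 ± 13.3 and 150.5 ± 12.3 FPKM, and neither was called.

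In the ATF6 and IRE1 arms of the unfolded protein response, which act beside PERK, 7 of 22 genes rose, 0 fell and 15 were not called. Their median log2 fold change was 0.16, and of all genes tested 14.1% rose and 13.6% fell. HERPUD1, of ER-associated degradation, rose 2.75-fold, from 67.0 ± 19.7 to 184 ± 13.8 FPKM (SD, n = 3; adjusted p = 0.00370, limma). DNAJB9 rose 3.07-fold, the ubiquitin ligase SYVN1 2.06-fold and the chaperone HSPA5 1.66-fold (adjusted p = 0.00160, 0.00210 and 0.00218, limma). The chaperones CALR and CANX were at 502 ± 48.0 and 505 ± 16.9 FPKM and at 522 ± 59.3 and 489 ± 1.89 FPKM, with adjusted p = 0.937 and 0.576. Of these genes HERPUD1, DNAJB9 and XBP1 shared the ordering of the controls seen in ATF4 targets, with HERPUD1 at 50.7, 61.5 and 89.0 FPKM in untreated cells. These were named after their values were seen.

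**Figure D4:**
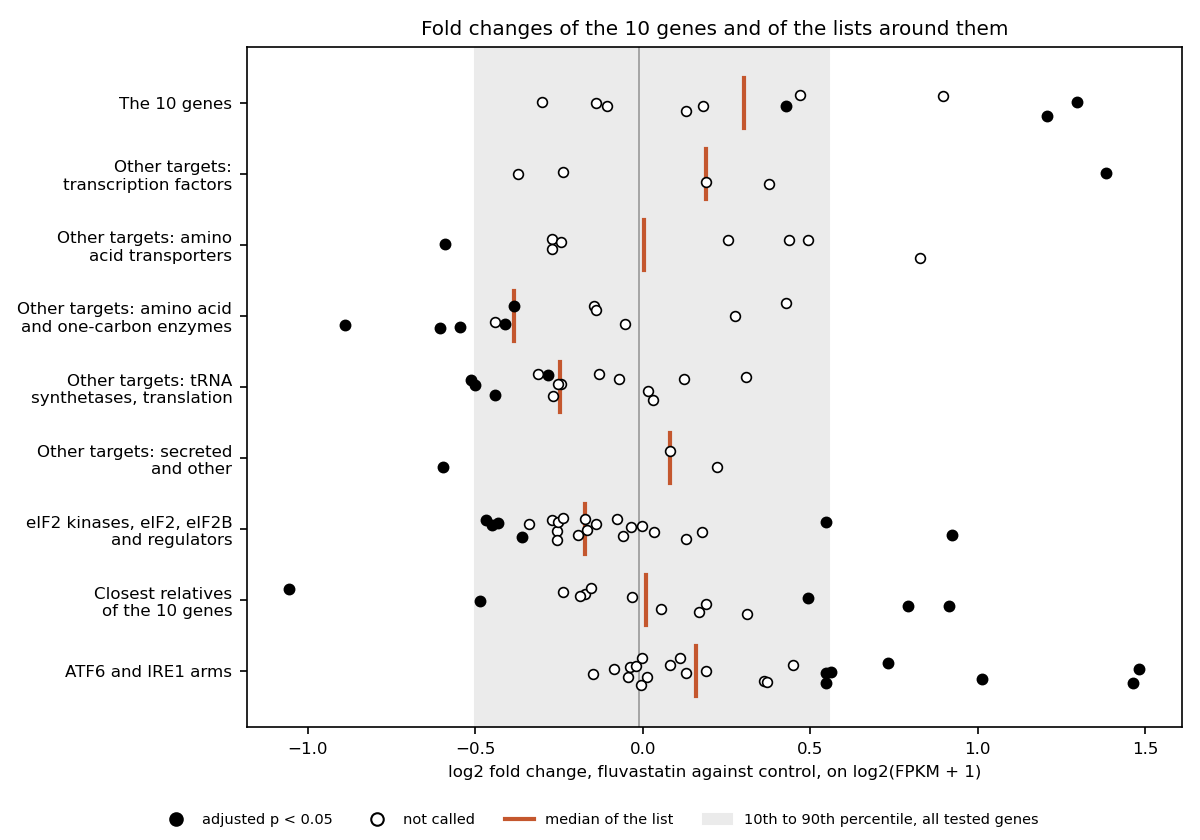
Log2 fold change on log2(FPKM + 1) (horizontal axis) of every tested gene in the 10 members and in the lists around them, filled where the adjusted p was below 0.05, with the list's median as an orange bar and the range from the 10th to the 90th percentile of all tested genes, -0.50 to 0.56, in grey. DDIT3, PPP1R15A, ATF3, DNAJB9, HERPUD1 and SYVN1 lie beyond 1 on the right, and the medians of the amino acid enzymes and tRNA synthetases lie at -0.38 and -0.25.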

How the data were processed

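STAR, Cufflinks and Cuffdiff with the hg38 genome are the tools that the submitters' processing notes list. Their versions, the gene models, the strandedness of counting and any rescaling between libraries are not given in the sources used here. Values in the deposited table carry no named unit and were taken as FPKM because the values are not whole and come from Cufflinks tools. Genes reaching 1 FPKM in 3 or more libraries (14344 of 29790) were tested together with limma 3.58.1 (R 4.3.3) after taking log2(FPKM + 1), two-sided, without covariates, with Benjamini-Hochberg adjustment and a threshold of 0.05. Fold changes on that scale understate changes of low genes, and plain folds are ratios of mean FPKM. On simulated data for this comparison over 14344 genes, the fit recovered 30%, 64%, 92% and 100% of genes changed by log2 0.5, 1, 2 and 3. The simulation changed only 50 genes at each size, against 3971 called in the data, and held no depth difference. Its shares therefore need not hold for these data.

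FPKM carries no counts. Relative depth came from the commonest ratio between 2 libraries among the 11289 genes at 0 in at least 1 library, in steps of 0.01 log2, and absolute depth is unknown. Coordinates are from GENCODE release 29 (GRCh38). No pair of libraries shared more than 2 identical values above 0. The 10 members and all gene lists were chosen with earlier results of these data known. Genes named from a list were its called genes with the smallest adjusted p (up to 4), up to 2 abundant uncalled genes, ATF3, ATF5, CEBPG, the eIF2 kinases and the relatives of the members, and any others are stated as chosen after their values were seen. The alternatives were another pseudocount (0.1), no filter, a higher one (mean of 5 FPKM or more), median-ratio scaling, quantile normalization, trend and robust on, depth as a covariate, a replicate block and leaving out each library. A relative of the members is not reported here.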

Additional observations from a re-analysis of the deposited data

How the results depend on the processing

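The number of members that rose was 3, and it was 5 at a mean of at least 5 FPKM and with trend and robust on, 2 with a pseudocount of 0.1, no filter or quantile normalization, 0 with depth as a covariate and 1 to 3 without 1 library. No member fell under any alternative run. Over all genes, 3971 were called, 61 with depth as a covariate, 2340 to 3416 without 1 library and 3154 with the replicate block. Deviations of same-numbered libraries correlated at -0.00151, 0.0845 and 0.0842, and those of differently numbered ones at -0.136 to 0.0579. The labels state no pairing, and these values cannot decide whether same-numbered libraries shared a batch. The block kept the members' calls at 3, and ended those of EIF2B1, EIF2B3, AARS, ALDH18A1 and CEBPZ, leaving 0 of 4 that fell in the eIF2 list. Of 140 values of the 10 members over 14 alternatives, 120 kept direction and side of the threshold, 12 lost a call, 5 gained one and 3 changed sign without being called.

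Every named gene that changed sign was uncalled in both fits. Without 1 library the log2 fold change ran from -0.60 to 0.012 for ASNS, -0.27 to 0.57 for CHAC1, -0.26 to 0.018 for DDIT4, -0.064 to 0.072 for CALR, -0.14 to 0.0051 for CANX, -0.040 to 0.096 for EIF2A, -0.11 to 0.026 for EIF2AK1, -0.027 to 0.045 for EIF2AK4, -0.018 to 0.10 for LRP8, -0.29 to 0.17 for PCK2, -0.26 to 0.033 for SESN1, -0.11 to 0.32 for STC2 and -0.22 to 0.11 for TRIB2. With depth as a covariate it was -0.13 for CALR, -0.095 for EIF2A, 0.053 for EIF2AK2, 0.092 for EIF2AK4, -0.20 for LRP8, 0.069 for PCK2 and 0.11 for SESN1. CALR gave -0.033 with quantile normalization, and EIF2AK4 gave 0.014 with median-ratio scaling and 0.020 with quantile normalization. The cause was not tested. Absolute depth is unknown, so the counting error of low genes such as VLDLR could not be given.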
